A study of Mus musculus with 40 samples.

Results

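Serine synthesis and one-carbon metabolism was followed in mouse oocytes through the transcripts of 9 enzyme genes: Phgdh, Psat1, Psph, Shmt1, Shmt2, Mthfd1, Mthfd2, Tyms and Mat2a. A probe set, the group of short oligonucleotides with which an Affymetrix array measures a transcript, was taken as a member where the platform annotation gave it exactly 1 of these symbols. By this rule 8 of the 9 genes had a probe set, out of 18193 gene symbols on the arrays, and Mat2a was not analysed here. The 8 genes had 24 probe sets, 23 on the 430A array and 1, for Tyms, on the 430B array. Another 3 probe sets that carried Phgdh or Tyms together with another symbol were left out.

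Oocytes were isolated from ovaries of SJLB6 female mice at 5 follicle stages, with 4 biological replicates for each stage on each of the 2 array types, which makes 40 samples. Primordial follicle oocytes came from mice of 2 days of age in pools of 400 oocytes, primary follicle oocytes from 6 days in pools of 90, and secondary follicle oocytes from 12 days in pools of 60. Small antral follicle oocytes came from 17 days in pools of 30, and large antral follicle oocytes from 24 days in pools of 20. No treatment or genetic change separated the stages, and RNA was amplified with a small-sample labelling kit. Stage, age and pool size changed together and cannot be told apart. The labels do not say which animals gave which pool, so the p-values measure the spread between these samples. Deposited primordial values understate that spread, as described below.

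Serine is made from a glycolytic intermediate by Phgdh, then Psat1, then Psph. Serine hydroxymethyltransferase moves a carbon unit from serine to tetrahydrofolate and leaves glycine; Shmt1 is the cytosolic enzyme and Shmt2 the mitochondrial one. Mthfd1 in the cytosol and Mthfd2 in mitochondria interconvert the folate-bound carbon units, which feed purine rings, the methyl group of thymidylate through Tyms, and S-adenosylmethionine through methionine and Mat2a. An oocyte in a follicle is arrested in meiosis and does not replicate its DNA while it grows, but it builds up a store of RNA, protein and methyl marks for the embryo.

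The upstream sequences of Psat1, Shmt1, Mthfd1 and Mthfd2 are shown because the transcripts of Psat1 and Shmt1 were lower and those of Mthfd1 and Mthfd2 higher in primary than in primordial oocytes. Each is the 250 bases before the RefSeq transcript start on GRCm38.p6, read 5′ to 3′ along the gene: chr19:15925060-15925309 on the minus strand for Psat1, chr11:60811266-60811515 on the minus strand for Shmt1, chr12:76254982-76255231 on the plus strand for Mthfd1 and chr6:83317605-83317854 on the minus strand for Mthfd2. Capitals mark the CCAAT box, written CCAAT on the strand shown or ATTGG where it lies on the other strand.
Psat1: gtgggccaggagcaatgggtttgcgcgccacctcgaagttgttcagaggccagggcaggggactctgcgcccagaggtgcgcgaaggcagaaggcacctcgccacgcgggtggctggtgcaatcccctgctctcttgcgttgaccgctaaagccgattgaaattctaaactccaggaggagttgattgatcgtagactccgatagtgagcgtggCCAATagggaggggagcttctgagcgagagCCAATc
Shmt1: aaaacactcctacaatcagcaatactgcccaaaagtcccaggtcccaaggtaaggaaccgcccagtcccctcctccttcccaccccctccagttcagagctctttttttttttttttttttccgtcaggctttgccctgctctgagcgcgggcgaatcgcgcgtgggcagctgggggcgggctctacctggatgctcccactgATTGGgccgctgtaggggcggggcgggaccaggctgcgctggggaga
Mthfd1: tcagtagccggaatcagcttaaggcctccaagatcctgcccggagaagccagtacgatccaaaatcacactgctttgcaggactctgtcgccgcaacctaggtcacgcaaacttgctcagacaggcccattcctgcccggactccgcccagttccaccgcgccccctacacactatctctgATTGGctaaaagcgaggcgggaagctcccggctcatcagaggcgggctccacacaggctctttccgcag
Mthfd2: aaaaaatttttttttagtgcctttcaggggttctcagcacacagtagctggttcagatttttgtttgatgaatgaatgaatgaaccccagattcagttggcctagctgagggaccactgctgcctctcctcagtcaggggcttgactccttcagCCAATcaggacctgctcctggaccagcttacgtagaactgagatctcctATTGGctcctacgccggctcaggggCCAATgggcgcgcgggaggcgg
A CCAAT box was present in the windows of 7 of the 9 members, with 2 in Psat1, 1 in Shmt1, 1 in Mthfd1 and 3 in Mthfd2, against 33.8% of 32851 mouse promoter windows of the same length. A GC box (GGGCGG on either strand) was present in 6 of 9, against 32.7% of all windows, and overlapped no CCAAT box. The amino acid response element bound by Atf4 (searched as TGATGNAA on both strands) was present in 3.5% of all windows, and these letters were in none of the 10 windows of the 9 members. These matches describe the sequences, and no array value bears on them. In the windows shown, the lower and the higher genes both carried the CCAAT box. Psat1 had another window, not shown, with a GC box and no CCAAT box, while its window shown had no GC box. The windows shown for Mthfd1 and Mthfd2 lie inside the annotated spans of these genes, so the matches depend on the transcript start used.

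Primordial replicates 2, 3 and 4 have the form of averages with replicate 1. Taking 2 times their signal minus that of replicate 1 never gave a negative number, in 22526 comparisons on 430A and 22411 on 430B, whereas the same arithmetic in 48 ordered pairs of replicates at the other stages gave 1120 to 2857 negatives (430A) and 1989 to 3790 (430B). The result of that subtraction is called the unmixed value and is given beside the changes of single genes relative to the primordial stage. Counts and marker sums use deposited values unless stated. Averages with a shared sample vary less among themselves: for Mthfd1 1415917_at the primordial SD was 77.4 as deposited and 154.5 unmixed. Adjusted p-values from deposited primordial values therefore rest on an understated spread. The unmixed value does not exist for Psph, whose values at all stages lie off the decimal grid of the other probe sets. On 430B, which here concerns only Tyms, the protocol text of small antral replicates 2 to 4 names the age and pool size of the secondary stage, and the stage in the title was kept.

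The oocyte identity of the pools was checked on marker genes. All 10 oocyte markers passed the signal filter, and their summed scaled signal on 430A was 55990.5 to 68151 in primordial (57290 to 84492 unmixed), 101107 to 105399 in primary, 102153 to 115941 in secondary, 91239 to 102784 in small antral and 71251 to 78875 in large antral oocytes. Granulosa cell markers, 9 of 15 tested, summed to 1316 to 1561 in primordial (1347 to 1913 unmixed) and 1619 to 1884 in primary oocytes. Their sums were 2377 to 2505 in secondary, 2044 to 2275 in small antral and 2119 to 2233 in large antral oocytes. Amh, Amhr2, Inhba, Wt1 and Gatm were under 100 on every array. Markers of theca, stroma and fibroblasts, of which 3 of 10 were tested, summed to 889 to 1245 in primordial oocytes (910 to 1691 unmixed) and to between 463 and 755 at the later stages, with Cyp11a1, Col1a2, Col3a1 and Acta2 under 100 on every array. Endothelial and blood markers, 5 of 9 tested, summed to 624 to 1022 in primordial (638.7 to 1496.4 unmixed) and 998 to 1167 in large antral oocytes. Surface epithelium markers, 3 of 6 tested, summed to between 613 and 680 in primordial (623.5 to 772.5 unmixed) and 2230.2 to 2749 in large antral oocytes. At the first transition 2 granulosa markers rose and 2 fell, and 2 stroma markers fell. The part of these shifts in the changes of the members was not tested.

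Values are array signals scaled so that every array has the same trimmed mean of 500, and a log2 change is the later minus the earlier stage on log2(signal + 32). A probe set was tested where its scaled signal reached 100 on at least 4 of 20 arrays, which 20 of the 24 member probe sets did; 1422198_a_at of Shmt1 and 1427811_at, 1427810_at and 1438690_at of Tyms did not. Changes were tested with limma, adjusted by Benjamini-Hochberg over all tested probe sets of the array, and called at an adjusted p under 0.05. The pools are bulk samples, so fewer cells of a type and less RNA per cell cannot be told apart.

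Between the primordial and primary stages, 5 of the 7 genes tested through 1 probe set each were called, where 56.5% of all 430A probe sets passed, 26.5% upward and 30.0% downward. One of the 5, Psat1, was lower in primary oocytes but passed the signal filter only through its primordial samples, so its call was fixed by the filter and is not counted as support. Shmt1 fell, Mthfd1 and Mthfd2 rose, and Shmt2 and Psph did not pass. Phgdh was called as a rise by the probe set that represents it, while its other 3 probe sets fell. With unmixed values the same 5 genes, with Psat1 again fixed by the filter, were called in the same directions, of 6 tested. Among all probe sets 50.3% passed, 24.8% upward and 25.5% downward. Fitted on the unmixed values of the 2 stages alone, an alternative chosen after the data had been seen, 3 of 6 genes were called (Psat1, Shmt1 and Mthfd1), against 38.8% of all probe sets. The Psat1 call in this count was likewise fixed by the filter.

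**Figure D1:**
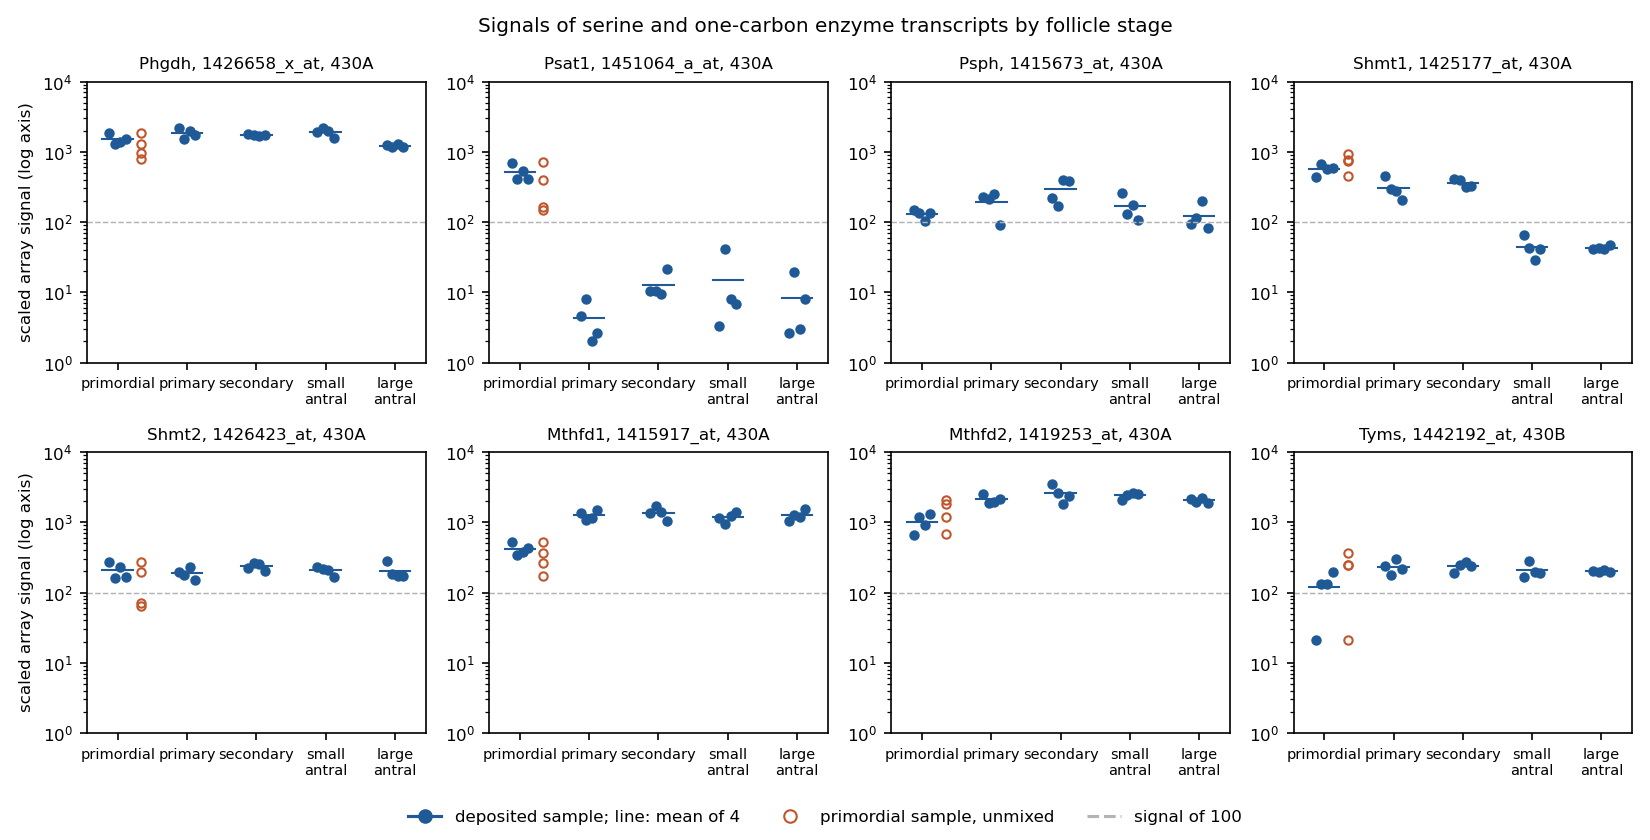
Scaled array signal (log axis, no unit) of 1 probe set for each of 8 genes at the 5 follicle stages. Filled points are the 4 deposited samples and the line is their mean, open points are unmixed primordial samples, and the dashed line marks a signal of 100. Psat1 lies between 407 and 688 in deposited primordial samples (146.3 to 703.6 unmixed) and at 41.7 or below at all later stages. Shmt1 lies under 100 in both antral stages, and the Shmt2 panel stays between 151 and 279 in deposited samples.

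Psat1, the aminotransferase of serine synthesis, was detected above the filter in primordial oocytes alone. Its probe set 1451064_a_at had scaled signals of 688, 416, 533 and 407 in the 4 primordial samples, and 703.6, 161.7, 397.5 and 146.3 with unmixed values. At the later stages the signals were 4.6, 7.9, 2.0 and 2.6 in primary, 10.3, 10.3, 9.3 and 21.2 in secondary, 3.3, 41.7, 7.9 and 6.9 in small antral and 2.6, 19.2, 3.0 and 7.9 in large antral oocytes. The lowest primordial sample was thus well above the highest of the 16 later ones, and the probe set passed the filter only through the 4 primordial arrays, so that it had to differ from the later stages. The mean was 4.3 ± 2.7 in primary oocytes, against 511 ± 131 in primordial oocytes (SD, n = 4 each).

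The log2 difference of Psat1 in primary relative to primordial oocytes was -3.88, and -3.15 with unmixed values, given as a description with no test. The size depends on the constant added before the logarithm: the change was -6.69 with a constant of 1 and -2.53 with a constant of 100. A second Psat1 probe set, 1454607_s_at, had signals of 21.8, 33.7, 5.6 and 39.4 in primary oocytes, against 988, 903, 1047 and 1023 in primordial oocytes. It too reached 100 on the 4 primordial arrays alone, and its log2 difference, likewise a description, was -4.2 (-4.25 unmixed). From the primary stage on, no Psat1 change passed the test in either probe set, with the lowest adjusted p at 0.19 for 1454607_s_at between the antral stages (0.56 ± 0.26, SE).

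Phgdh, the enzyme of the first step, gave different answers in its 4 probe sets, all of the _x_at type, whose oligonucleotides may also match other transcripts. 1426658_x_at, the one with the highest mean signal, had 1831, 1274, 1378 and 1518 in primordial, 2167, 1495, 1999 and 1746 in primary, and 1787, 1754, 1664 and 1748 in secondary oocytes. It had 1904, 2213, 2002 and 1580.2 in small antral and 1248, 1153, 1269 and 1167 in large antral oocytes. Among deposited values the large antral samples were the lowest of the 5 stages and overlapped no other stage, while the unmixed primordial values, 776.5 to 1874, spanned them. The primordial and primary samples overlapped each other.

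In primary relative to primordial oocytes 1426658_x_at changed by 0.30 ± 0.12 (SE, adjusted p = 0.040), and by 0.67 ± 0.19 with unmixed values (adjusted p = 0.0051); it was not called under 9 of the alternatives, with adjusted p up to 0.19. In contrast, 1454714_x_at had 544, 541, 496 and 487 in primary oocytes, against 2686, 2152, 2051 and 1782 in primordial oocytes. That probe set fell by 1.99 on the log2 scale (SE 0.12, adjusted p = 1.41e-12; -1.57 unmixed). The other two, 1437621_x_at and 1456584_x_at, changed by -1.88 and -1.5 (-1.42 and -1.16 unmixed, all past the threshold), and in none of the 3 did primary and primordial samples overlap. The direction for Phgdh between the primordial and primary stages therefore differs by probe set, 1 upward and 3 downward.

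The same division held through growth. In large antral relative to primary oocytes 1426658_x_at fell by 0.59 (SE 0.11, adjusted p = 2.11e-04), with means of 1209 ± 58 in large antral and 1852 ± 294 in primary oocytes (SD, n = 4 each). The other three rose, by 0.65 ± 0.13 for 1437621_x_at, 0.61 ± 0.11 for 1454714_x_at and 0.47 ± 0.12 for 1456584_x_at (SE, adjusted p = 4.68e-04, 1.54e-04 and 0.0033). Their rise was called already in secondary relative to primary oocytes, at 0.50, 0.37 and 0.44 (SE 0.13, 0.11 and 0.12, adjusted p = 0.010, 0.024 and 0.013), where 1426658_x_at changed by -0.08 (adjusted p = 0.70); under 6 alternatives the call of 1454714_x_at was lost, and under 1 that of 1456584_x_at. Most of the fall of 1426658_x_at lay in the final step, with 1209 ± 58 in large antral and 1925 ± 263 in small antral oocytes, a log2 change of -0.65 ± 0.11 (SE, adjusted p = 0.0011). In that step the other 3 probe sets changed by 0.15, 0.13 and -0.05 with adjusted p of 0.52 or higher.

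Psph, the phosphatase that releases serine, was low and scattered. Its signals were 148, 136, 104 and 135 in primordial, 227, 209.7, 249.6 and 91.6 in primary, 222, 168, 396 and 382 in secondary, 259, 129, 172 and 106 in small antral and 95, 113, 201 and 82.8 in large antral oocytes. The secondary stage had the highest mean, 292 ± 114, and large antral oocytes the lowest of the growing stages, 123 ± 54 (SD, n = 4 each), but neighbouring stages overlapped throughout. None of the 6 comparisons passed limma's test; 1 had an unadjusted p under 0.05, small antral against secondary, with a log2 change of -0.69 ± 0.30 (SE, adjusted p = 0.13). Without primary replicate 4, the low sample of that stage, the change was 0.68 from primordial to primary (adjusted p = 0.040) and -0.80 from primary to large antral (adjusted p = 0.038).

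**Figure D2:**
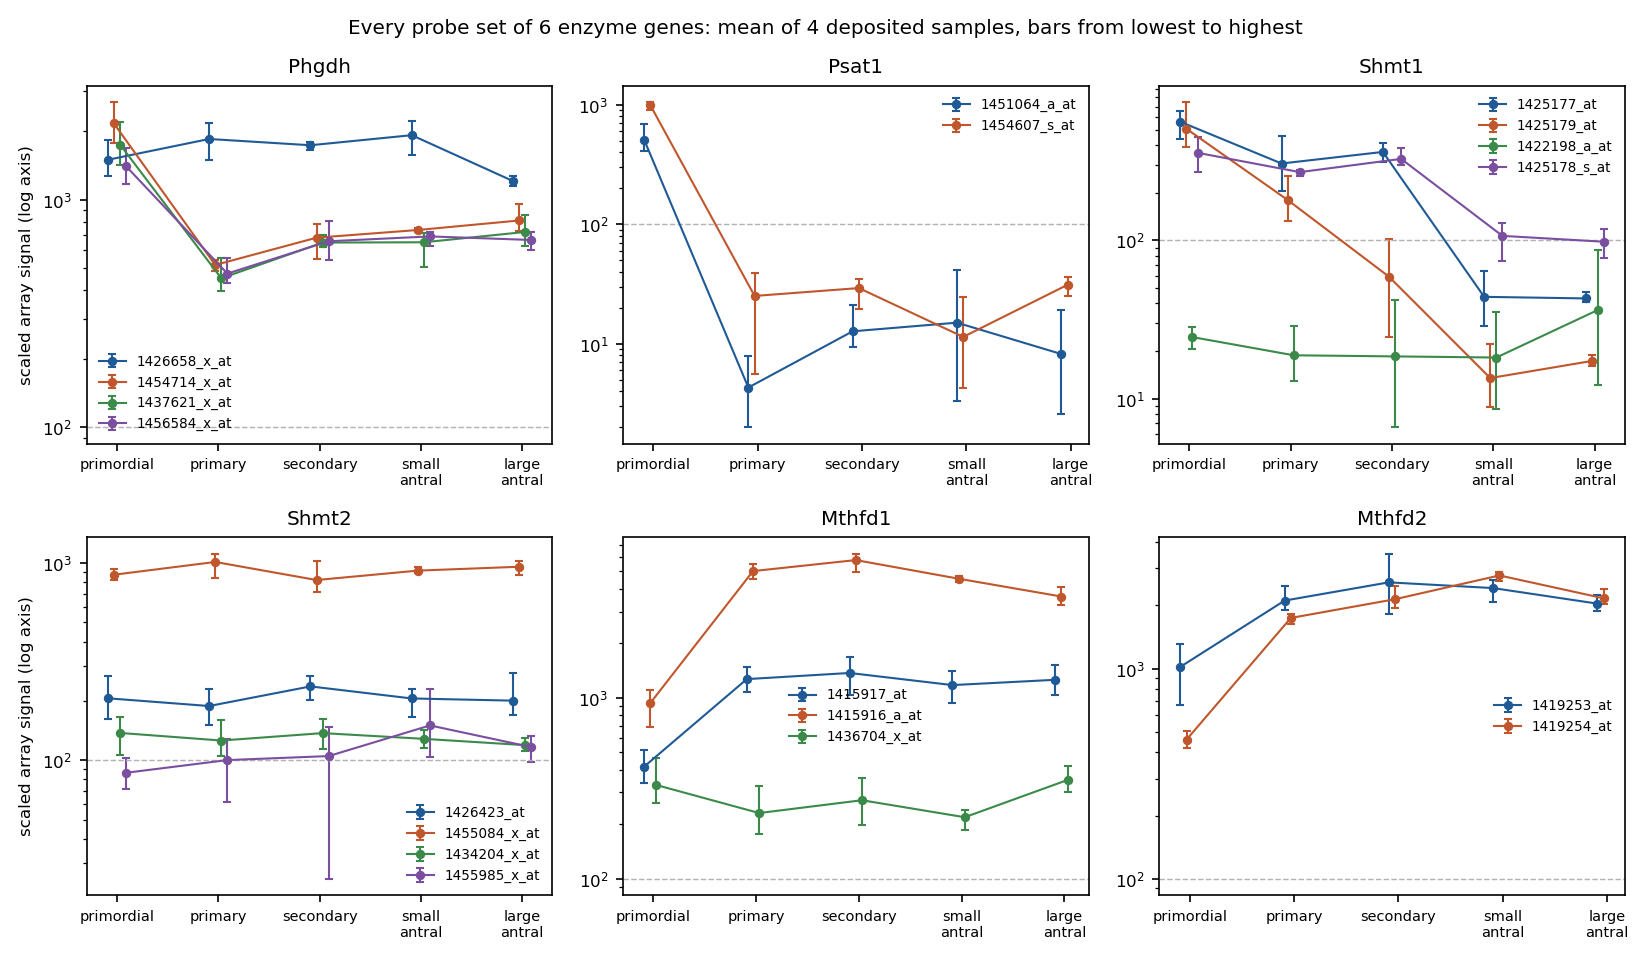
Mean scaled signal (log axis, no unit) of every probe set of 6 genes at the 5 stages, deposited values, with bars from the lowest to the highest of 4 samples and a dashed line at a signal of 100. Phgdh 1426658_x_at does not fall into the primary stage, where the other 3 Phgdh probe sets fall to between 396 and 558, both Psat1 probe sets drop after the primordial stage, and 3 of the 4 Shmt1 probe sets fall by the small antral stage.

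Shmt1, the cytosolic serine hydroxymethyltransferase, fell in steps. Its probe set 1425177_at had signals of 437, 659, 569 and 582 in primordial, 454, 292, 273 and 205 in primary and 411, 402, 315 and 321 in secondary oocytes. It then had 64.5, 42.0, 28.7 and 40.7 in small antral and 41.3, 42.6, 40.9 and 47.0 in large antral oocytes. Every antral sample was below every sample of the 3 earlier stages, and the antral signals were all under 100.

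Its steepest step led to the small antral stage. Shmt1 averaged 44.0 ± 14.9 in small antral oocytes, against 362 ± 51 in secondary oocytes (SD, n = 4 each), and fell by 2.39 on the log2 scale (SE 0.20, 95% interval -2.81 to -1.97, adjusted p = 9.83e-08). It was 1 of 7 genes called in this comparison, in which 17.4% of 430A probe sets passed, and 10.6% of all fell. Granulosa markers summed to 2044 to 2275 in small antral and 2377 to 2505 in secondary oocytes, and their part in the Shmt1 change was not tested. The probe set 1425178_s_at fell by 1.39 (SE 0.16, adjusted p = 3.61e-06), with 129, 74.4, 99.5 and 124 in small antral and 312, 298.5, 314 and 385 in secondary oocytes.

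The probe set 1425179_at was called as falling at 2 successive steps of growth. At the second, its signals were 24.5 to 102.5 in secondary and 8.9 to 22.1 in small antral oocytes. Signals under 100 have no reliable order. The means of 1425179_at were 508 ± 169 in primordial, 180.0 ± 53.3 in primary, 59.0 ± 33.1 in secondary, 13.5 ± 5.9 in small antral and 17.3 ± 1.1 in large antral oocytes (SD, n = 4 each). It fell by 1.26 in secondary relative to primary oocytes (SE 0.26, adjusted p = 0.0016), where 1425177_at changed by 0.26 ± 0.20 (SE, adjusted p = 0.42), and fell by 0.94 in small antral relative to secondary oocytes (SE 0.26, adjusted p = 0.015). This last call was lost with the 2 stages alone (adjusted p = 0.077) and without secondary replicate 4 (0.063). Its size depends on the added constant, with a log2 change of -1.95 for a constant of 1 and -0.47 for 100. In large antral relative to primary oocytes all 3 tested probe sets fell, with log2 changes of -2.12, -1.22 and -2.07 for 1425177_at, 1425178_s_at and 1425179_at (SE 0.20, 0.16 and 0.26).

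In primary relative to primordial oocytes 1425177_at fell by 0.85 (SE 0.19, adjusted p = 4.84e-04; -1.13 unmixed, adjusted p = 2.25e-04), with 1 of the primary samples inside the primordial range. 1425178_s_at changed by -0.34 ± 0.16 (SE, adjusted p = 0.072; -0.63 unmixed, adjusted p = 0.013). 1425179_at was called as deposited, with a change of -1.33 ± 0.25 (SE, adjusted p = 6.57e-05), but its unmixed primordial values were 763, 44.0, 287 and 48.3, and its unmixed change was 0.09 ± 0.50 (SE, adjusted p = 0.90). Without primordial replicate 1 the deposited values gave -1.14 (adjusted p = 6.19e-04), with the signal of that replicate still part of the others. That fit therefore does not set replicate 1 aside. Markers of theca, stroma and fibroblasts summed to 464 to 755 in primary and 889 to 1245 in primordial oocytes (910 to 1691 unmixed) beside the lower Shmt1 and Psat1, and their part was not tested. The fourth probe set, 1422198_a_at, was between 6.6 and 87.5 on all arrays and was not tested.

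Among genes with a span of at least 1 log2 unit over the 4 growing stages, the probe sets whose values over the 16 arrays were most like those of Shmt1 belonged to Ccdc71l (Pearson r = 0.974), Nrarp (0.967) and Taldo1 (0.966), the transaldolase of the pentose phosphate pathway. Each was lower in both antral stages: Ccdc71l averaged 364 in primary, 369 in secondary, 77.6 in small antral and 56.3 in large antral oocytes. These correlations are over arrays that share stage and scaling and are given as a description. Psph, the other member with such a span, had 0.741 for Zc3hc1, 0.730 for Snapc2 and 0.728 for Ncbp1.

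Shmt2, the mitochondrial counterpart, showed no called change at the settings used throughout. Its probe set 1426423_at had 269, 163, 229 and 165 in primordial, 197, 176, 229.8 and 151 in primary, 220.0, 267, 258 and 203 in secondary, 230.5, 216, 212.5 and 165 in small antral and 278.5, 183, 172 and 169.6 in large antral oocytes. All stages overlapped. Across its 4 probe sets and 6 comparisons, limma called 0 of 24 changes, and 1 had an unadjusted p under 0.05: 1455084_x_at in secondary relative to primary oocytes, at -0.30 ± 0.11 (SE, adjusted p = 0.071). That change was called at -0.41 without secondary replicate 3 and at -0.38 without primary replicate 1 (adjusted p = 0.012 and 0.027). The same probe set was called as a rise in primary relative to primordial oocytes with arrays scaled to the same median, at 0.35, and without primary replicate 1, at 0.29, and in large antral relative to primordial oocytes with median scaling, at 0.31 (adjusted p = 0.024, 0.037 and 0.039). The change of 1426423_at in large antral relative to primary oocytes was 0.07, with a 95% interval from -0.28 to 0.42. The strongest Shmt2 signal, 1455084_x_at, was 714 to 1115 on every deposited array.

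The change of Shmt1 was set directly against that of Shmt2 on the same arrays. In small antral relative to secondary oocytes the difference between their log2 changes was -2.21 ± 0.18 (SE, n = 4 against 4, exact permutation p = 0.0286, two-sided), the smallest p that 4 against 4 samples allow. Over the 22 such tests run on 4 gene pairs, the adjusted p was 0.10, and 0 of 22 passed, with 6 at that smallest exact p. Even the smallest exact p could pass this adjustment only if many more of the tests had shared it. That none passed therefore does not show that the paired genes changed alike. The other two Shmt1 tests among those 6 were -3.78 ± 0.63 from primordial to large antral, with unmixed values, and -2.19 ± 0.25 from primary to large antral. The other three set Phgdh (1426658_x_at) against Psat1, whose signals are fixed by the filter in primordial oocytes and near the bottom of the scale afterwards, and their values are not given. For Mthfd1 against Mthfd2 the exact permutation p was 0.11 or higher in every comparison, and in large antral relative to primary oocytes the difference was 0.03 ± 0.18 (SE).

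Mthfd1, the cytosolic enzyme that interconverts folate-bound carbon units, rose at the first transition. Its probe set 1415917_at had 1374, 1072, 1152 and 1484 in primary oocytes, against 518, 336.5, 382 and 429 in primordial oocytes. Each primary sample was above each primordial one. The log2 change was 1.54 ± 0.16 (SE, adjusted p = 9.23e-09), and 1.96 ± 0.23 with unmixed values. It then stayed within 938 to 1686 at all later stages, and in large antral relative to primary oocytes changed by -0.01 ± 0.15 (SE, adjusted p = 0.95).

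A second Mthfd1 probe set, 1415916_a_at, had 4879, 4528.5, 5218 and 5478 in primary oocytes, against 688, 1111, 997 and 945 in primordial oocytes. It rose by 2.40 ± 0.12 (SE, adjusted p = 2.38e-14; 2.08 unmixed). It fell again later, to 4562 ± 165 in small antral oocytes, against 5783 ± 582 in secondary oocytes, and to 3636 ± 390 in large antral oocytes, against 4562 ± 165 in small antral oocytes (SD, n = 4 each; log2 changes of -0.33 ± 0.09 at both steps, SE, adjusted p = 0.013 and 0.023). The first of these calls was lost under 2 alternatives, with adjusted p up to 0.059, and the second under 6, with adjusted p up to 0.084; among them were large antral replicates 2 and 3 and small antral replicate 1, each left out. The third, 1436704_x_at, did not rise at the first transition. It had 177, 324, 188.5 and 234.5 in primary and 287, 463, 306 and 263 in primordial oocytes, a log2 change of -0.46 ± 0.20 (SE, adjusted p = 0.048; -0.60 unmixed). That small fall was lost under 12 alternatives, and was -0.30 without primordial replicate 2. Later it rose, to 352 ± 52 in large antral oocytes, against 219 ± 23 in small antral oocytes (SD, n = 4 each), by 0.61 ± 0.19 (SE, adjusted p = 0.047), and by 0.57 ± 0.19 in large antral relative to primary oocytes (SE, adjusted p = 0.023). Those calls were lost under 13 and 4 alternatives, and 1415916_a_at moved the other way at the final step.

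Mthfd2, the mitochondrial dehydrogenase and cyclohydrolase of the same carbon units, rose at the same transition. Its probe set 1419254_at had 1821, 1625, 1798.5 and 1733 in primary oocytes, against 472, 504, 417 and 445 in primordial oocytes. The rise was 1.86 ± 0.09 on the log2 scale (SE, adjusted p = 3.94e-14; 1.87 unmixed). The other probe set, 1419253_at, had 2485, 1907, 1925 and 2122 in primary and 669, 1195, 909.5 and 1306 in primordial oocytes. It rose by 1.06 ± 0.17 (SE, adjusted p = 1.25e-05), and by 0.68 ± 0.24 with unmixed values (adjusted p = 0.021), where the 2 stages overlapped and the call was lost with those stages alone (adjusted p = 0.095).

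Through growth 1419254_at peaked in the small antral stage. Its means were 1744 ± 88 in primary, 2142.5 ± 231.8 in secondary, 2780 ± 117 in small antral and 2163 ± 168 in large antral oocytes (SD, n = 4 each). Its log2 changes were 0.29, 0.38 and -0.36 at these steps (SE 0.09 each, adjusted p = 0.023, 0.0041 and 0.011), and neighbouring stages did not overlap. The first of these calls was lost under 4 alternatives, with adjusted p up to 0.084, 2 of them without secondary or primary replicate 2. 1419253_at followed with smaller changes, 0.25, -0.06 and -0.24 (SE 0.14 each), of which none passed. Without secondary replicate 3 the first change of 1419253_at was 0.41 (adjusted p = 0.036).

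Tyms, thymidylate synthase, was at the bottom of the scale in its 3 430A probe sets. 1427811_at, 1427810_at and 1438690_at reached 100 on 1 array in all, a primordial sample at 110.1, and were not tested. The 430B probe set 1442192_at had 21.4, 133, 134.0 and 193 in primordial, 239.5, 177, 298 and 218 in primary, 188, 249, 270.2 and 235 in secondary, 169, 281, 198 and 191 in small antral and 199, 193, 206 and 199 in large antral oocytes. From the primary stage on the samples of all stages overlapped. In primary relative to primordial oocytes it was called as deposited, at 0.96 ± 0.35 (SE, adjusted p = 0.039), in a comparison where 31.7% of 430B probe sets passed. The unmixed change was 0.38 ± 0.43 (SE, adjusted p = 0.59), where 22.7% passed. Without primordial replicate 1 the deposited change was 0.51 (adjusted p = 0.20), with the signal of that replicate still part of the others.

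**Figure D3:**
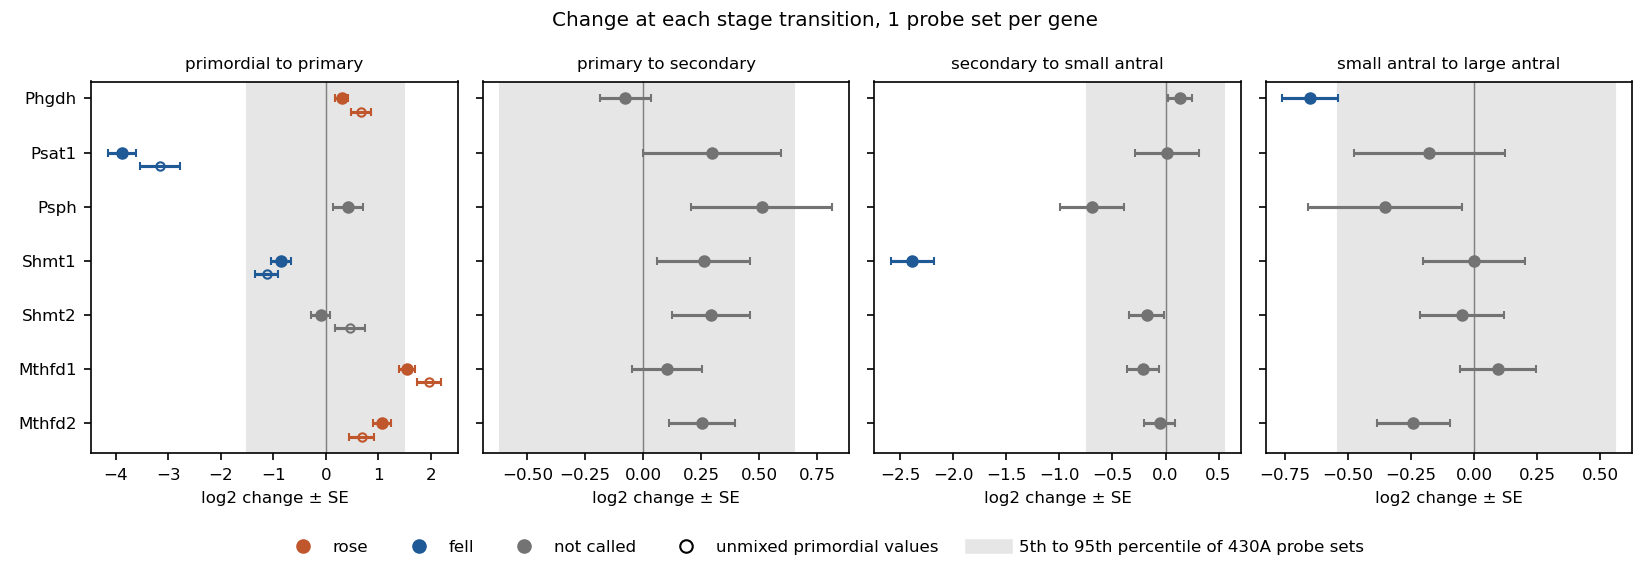
Log2 change of 7 genes, 1 probe set each, at the 4 successive transitions, with bars of 1 SE; filled points use deposited values, open points unmixed primordial values, and colours show calls at an adjusted p under 0.05. The grey band spans the 5th to 95th percentile of all tested 430A probe sets, -1.5 to 1.49 at the first transition and -0.74 to 0.55 at the third. Psat1 at the first transition, Shmt1 at the third and Phgdh at the fourth lie below the band, and the Psat1 call was fixed by the signal filter. Mthfd1 at the first transition lies above the band, at 1.54 (1.96 unmixed).

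Calls over the growing stages were counted with 1 probe set for each gene, beside the share of all 430A probe sets called. In secondary relative to primary oocytes limma called 0 of 7 genes, and 0 had an unadjusted p under 0.05, where 19.4% of 430A probe sets passed. Over all 20 tested probe sets of the members, 4 rose (3 of Phgdh and Mthfd2 1419254_at) and 1 fell (Shmt1 1425179_at) at that step, against 10.5% of 430A probe sets upward and 8.89% downward. In small antral relative to secondary oocytes 1 of 7 fell, Shmt1, where 17.4% of 430A probe sets passed, 10.6% downward. At the final transition 1 of 7 fell, Phgdh by 1426658_x_at, where 11.4% of all probe sets passed, 6.44% downward. From primary to large antral 2 of 7 fell, Shmt1 and Phgdh, against 41.3% called overall and 21.6% downward; over all 20 probe sets 5 rose and 5 fell, against 19.6% of 430A probe sets upward. From primordial to large antral 2 rose (Mthfd1 and Mthfd2) and 3 fell (Psat1, Shmt1 and Phgdh), with Psat1 again fixed by the filter, against 64.8% of all probe sets (30.2% upward and 34.6% downward). With unmixed values 2 rose and 2 fell of 6, with Psat1 again fixed by the filter, against 58.2% of all probe sets (28.1% upward and 30.1% downward).

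In large antral relative to primordial oocytes the log2 difference of Psat1 was -3.74 (-3.02 unmixed), and Shmt1 fell by 2.97 (SE 0.19; -3.26 unmixed). Mthfd1 rose by 1.53 ± 0.16 (1.94 unmixed) and Mthfd2 by 1.02 ± 0.17 (SE; 0.64 unmixed, adjusted p = 0.026). Phgdh 1426658_x_at changed by -0.29 ± 0.12 as deposited (SE, adjusted p = 0.038) and by 0.08 ± 0.19 with unmixed values (SE, adjusted p = 0.75), and so has no settled direction over this span. The other 3 Phgdh probe sets changed by -1.38 to -1.03 as deposited and by -0.95 to -0.69 unmixed, all past the threshold.

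Genes of neighbouring pathways were counted in 6 lists, 1 probe set for each gene. Over all 430A probe sets 26.5% rose and 30.0% fell at the first transition, and 19.6% rose and 21.6% fell from primary to large antral. Some list genes, among them Slc25a32, Gmps and Mtr, were measured on 430B. There 12.0% rose and 19.7% fell at the first transition, and 7.16% rose and 7.63% fell from primary to large antral. The counts of each list are to be read against the shares of both arrays. At the first transition 4 of 12 tested genes of the folate cycle and folate supply rose and 1 fell. Their median change was -0.04, against -0.08 over all 430A and -0.23 over all 430B probe sets. Fpgs, which adds the glutamate tail that keeps folate in cells, rose by 1.11 ± 0.13, the mitochondrial folate carrier Slc25a32 by 0.93 ± 0.11 and the reduced folate carrier Slc19a1 by 0.89 ± 0.14 (SE, adjusted p = 1.05e-07, 6.26e-07 and 7.06e-06; 1.26, 0.95 and 0.67 unmixed). Sfxn1, which carries serine into mitochondria, fell by 0.87 (SE 0.15; -1.07 unmixed). In large antral relative to primary oocytes Slc25a32 rose by 0.72 ± 0.12, to 3850 ± 612 in large antral, against 2303 ± 140 in primary oocytes (SD, n = 4 each), while Slc19a1 fell by 0.49 and Qdpr, which regenerates tetrahydrobiopterin, fell by 0.66.

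Of the glycine cleavage and glycine use list, 5 genes were tested, and at the first transition 2 rose and 2 fell, with a median of 0.23. Gcsh, the lipoyl carrier protein of glycine cleavage, averaged 843 ± 85 in primary and 1850.2 ± 145.9 in primordial oocytes (SD, n = 4 each) and fell by 1.11 (SE 0.13; -1.24 unmixed). It fell by a further 1.09 in large antral relative to primary oocytes (SE 0.14, adjusted p = 2.63e-06). Dld, the dihydrolipoamide dehydrogenase, rose by 0.92 ± 0.14, and the glycine transporter Slc6a9 by 0.75 ± 0.14 (SE; 1.46 and 0.78 unmixed). Gldc, the decarboxylase of the same system, was under 100 on every array.

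In the methionine cycle and polyamine list 8 of 15 tested genes rose and 3 fell at the first transition, with a median of 0.38. Ahcy, which hydrolyses S-adenosylhomocysteine, had 2304 ± 240 in primary and 1308 ± 184 in primordial oocytes and rose by 0.81 ± 0.12 (SE, adjusted p = 5.22e-06; 1.09 unmixed). Mat2b, the regulatory partner of Mat2a, rose by 0.43 ± 0.10 (SE; 0.50 unmixed). Cth, which makes cysteine from cystathionine, rose at both spans, by 1.24 ± 0.14 at the first transition (1.64 unmixed) and by 1.60 ± 0.12 in large antral relative to primary oocytes (SE, adjusted p = 4.42e-08 and 3.15e-09), with 576.5 ± 48.6 in large antral and 170.2 ± 33.7 in primary oocytes (SD, n = 4 each). The primordial mean of Cth was 53.6 ± 14.1 (SD, n = 4), under the signal of 100, so the size of its first change is imprecise. Mtr, methionine synthase, fell by 0.72 over growth (SE 0.15). Bhmt, Bhmt2 and Cbs were under 100 on every array.

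In the deoxynucleotide supply list, which holds the enzymes that work beside Tyms, 9 of 12 rose and 2 fell at the first transition, with a median of 0.77, against 26.5% rising, 30.0% falling and a median of -0.08 over all 430A probe sets. Tk1, thymidine kinase, had 1623 ± 182 in primary and 355 ± 60 in primordial oocytes (SD, n = 4 each) and rose by 2.10 ± 0.15 (SE, adjusted p = 1.26e-11; 2.50 unmixed). Ctps, CTP synthase, rose by 1.49 ± 0.12 and the p53-inducible ribonucleotide reductase subunit Rrm2b by 1.56 ± 0.15 (SE; 1.14 and 1.17 unmixed). Nme1, a nucleoside diphosphate kinase, fell by 2.58 (SE 0.20; -1.46 unmixed). From primary to large antral 2 of 12 rose and 4 fell; Rrm2 rose by 0.70 ± 0.12 (SE), with 757 ± 108 in large antral and 450.4 ± 29.3 in primary oocytes (SD, n = 4 each).

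Purine synthesis, which takes ring carbons from folate, had 2 genes up and 4 down of 11 at the first transition, and 7 of 11 down in large antral relative to primary oocytes, where 21.6% of all 430A probe sets fell. The median of the list at that span was -0.45, against 0.00 over all 430A probe sets. Gart, which carries one of the folate-dependent steps of the pathway, fell by 1.0 at the first transition (SE 0.12; -0.90 unmixed) and Prps1, which makes the ribose donor, fell by 2.5 (SE 0.25; -1.69 unmixed), while Gmps, GMP synthetase, rose by 1.34 ± 0.14 (SE; 2.03 unmixed). Over growth Adsl fell by 1.0 (SE 0.15) and Paics fell by 0.75 (SE 0.20). Atf4, the transcription factor known to drive serine synthesis genes in other cells, rose by 1.34 ± 0.13 (SE, adjusted p = 3.56e-09; 1.58 unmixed), with 2161 ± 441 in primary and 827 ± 103 in primordial oocytes (SD, n = 4 each).

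Of the 16 tested genes in the list of Atf4 and its known targets, 7 rose at the first transition, with a median of 0.28, and with unmixed values 6 rose and 2 fell. Ddit4, an inhibitor of mTORC1, rose by 4.33 ± 0.19 (SE; 3.98 unmixed) and Slc3a2, the heavy chain of amino acid exchangers, by 1.45 ± 0.10 (SE; 1.59 unmixed). Asns, asparagine synthetase, did not pass, at -0.28 ± 0.15 (SE, adjusted p = 0.13; -0.36 unmixed). In large antral relative to primary oocytes 6 of the list rose and 3 fell: Aldh18a1, of proline synthesis, rose by 2.19 ± 0.25, Ddit3 by 1.04 ± 0.13 and the cystine transporter Slc7a11 by 0.94 ± 0.14 (SE, adjusted p = 5.91e-07, 2.13e-06 and 1.38e-05). Psat1 and Phgdh are themselves known Atf4 targets in other cells, and their own values are those given above.

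**Figure D4:**
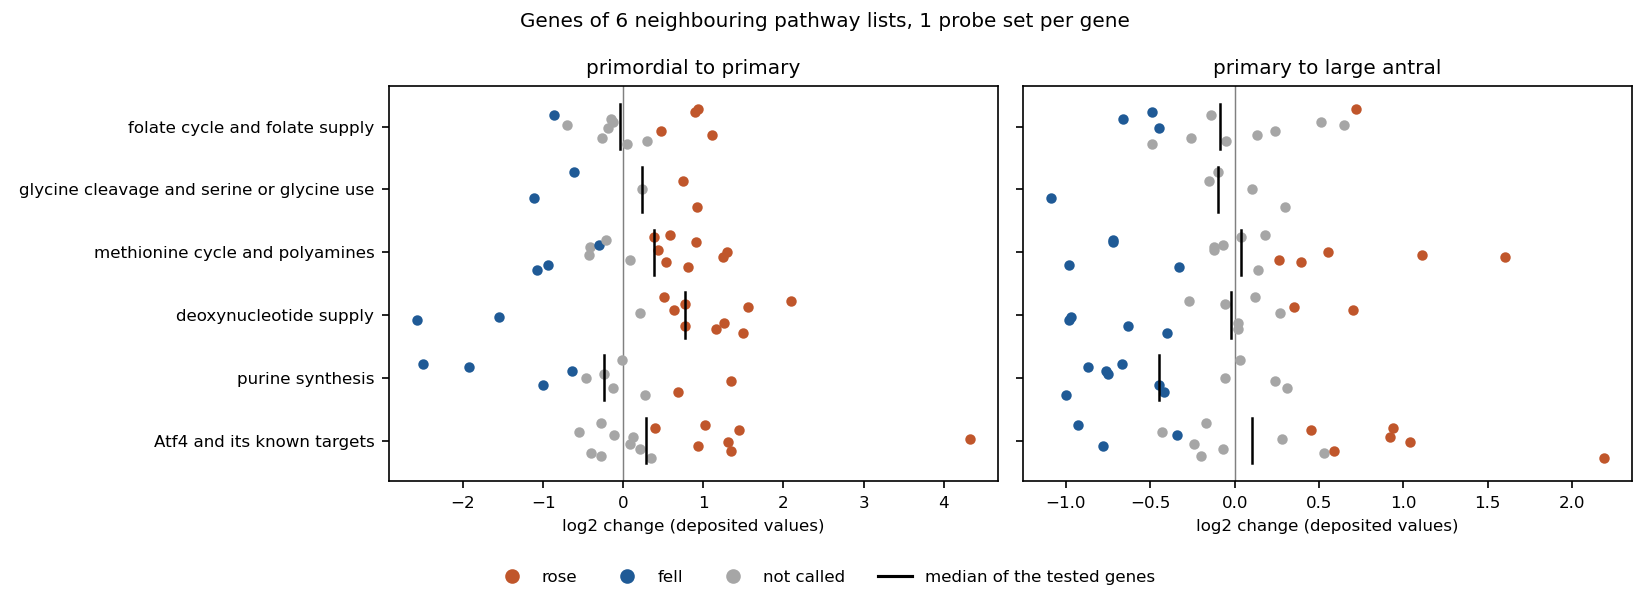
Log2 change of each tested gene of 6 neighbouring pathway lists, 1 probe set each, at the first transition (left) and from primary to large antral (right), deposited values; each point is a gene, the colour shows the call and the black line the median of the list. The deoxynucleotide list has its median at 0.77 on the left, and the purine list at -0.45 on the right.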

How the data were processed

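Oocyte RNA was measured on 40 arrays, 20 of type 430A and 20 of type 430B. The authors deposited 1 linear intensity value per probe set, made with MAS5 per the submitters' processing notes; its version is not given in the sources used here. MAS5 corrects for mismatch signal, so ratios between low signals are imprecise, and the number of arrays limits the precision of every value. As deposited, trimmed means ran from 151.1 to 154.5 on 430A and from 144.4 to 147.6 on 430B, and after scaling 57.4% to 64.7% and 65.8% to 77.9% of probe sets reached 100.

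Each array type was handled apart. Control probe sets were dropped, arrays were scaled to a trimmed mean of 500 (2% off each tail), 32 was added and log2 was taken. Probe sets at 100 or more on at least 4 of 20 arrays were tested, 15845 of 22626 on 430A and 19115 of 22411 on 430B, with limma 3.58.1 (lmFit, and eBayes with a trend) in R 4.3.3 and Benjamini-Hochberg adjustment. Comparisons with the primordial stage used all 20 arrays (15 residual degrees of freedom), the others the 16 arrays of later stages (12), because primordial replicates are not independent. The scripts were tested on simulated data. Pairs of genes were compared by exact permutation tests of per-array differences.

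The platform annotation gave 1 symbol to 20380 probe sets of 430A and 14565 of 430B, several to 691 and 241, and none to 1555 and 7605. The named genes were all members with every probe set, the 3 genes most correlated with a member, and the 3 genes of smallest adjusted p per list in each of the 2 spans described, some of which are given by count alone; Sfxn1, Mat2b, Rrm2b and Asns were added after their values had been seen. A gene with several probe sets was represented on 430A before 430B, by a plain suffix before others, then by the highest mean. The members and lists were chosen with earlier results of these data known. Alternatives covered scaling, the added constant, the filter, the variance model, samples in the fit, unmixed primordial values, the probe set and each left-out replicate. Same-numbered samples of different stages did not deviate together: the correlation of their deviations was -0.08 to 0.13 over 24 pairs on 430A, with 1 above 0.1, and -0.04 to 0.06 on 430B, so the numbers were not taken as pairs.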

Additional observations from a re-analysis of the deposited data

Results flagged for a closer look

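In 4 of 100 groups of 4 samples, 1 sample stood apart from the others by Dixon's test, where chance flags about 1 in 20 groups. For Psat1 1451064_a_at, secondary replicate 4 was high at 21.2, against 9.3 to 10.3 in the other three, and small antral replicate 2 was high at 41.7, against 3.3 to 7.9. Both values lie under the signal of 100 used as a filter. Phgdh 1437621_x_at was low in small antral replicate 3, at 508.2, against 685 to 717 in the other replicates. Shmt2 1426423_at was high in large antral replicate 1, at 278.5, against 169.6 to 183 in the others.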

How the results depend on the processing

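The calls of Shmt1 (1425177_at) and Mthfd1 (1415917_at) at the first transition, of Shmt1 in small antral relative to secondary oocytes and of Phgdh (1426658_x_at) in large antral relative to small antral oocytes held under every alternative run. With unmixed primordial values Shmt1 1425179_at changed by 0.089 at the first transition (adjusted p = 0.90, and 0.93 with the 2 stages alone) and Phgdh 1426658_x_at by 0.076 from primordial to large antral (adjusted p = 0.75 and 0.82), both opposite in sign to the deposited values. Counts of called genes moved beyond 1.5 times in 5 cases: to 3 for each of the 2 comparisons with the primordial stage when unmixed values were fitted with the 2 stages alone, which leaves fewer arrays, to 2 in small antral relative to secondary and to 2 in large antral relative to small antral oocytes when each gene was represented by its probe set of highest mean signal (adding Mthfd1 1415916_a_at), and to 1 in secondary relative to primary oocytes without secondary replicate 3 (Mthfd2 1419253_at). Leaving out 1 replicate at a time gave 4 to 6 called genes from primordial to primary, 0 to 1 from primary to secondary, 1 to 1 at each of the next 2 transitions, 4 to 5 from primordial to large antral and 2 to 3 from primary to large antral. Leaving out primordial replicate 1 does not take its signal out of the other primordial replicates. Counts relative to the primordial stage include Psat1, whose call was fixed by the filter. The replicate block changed no count of called genes, with 5 at the first transition and 2 from primary to large antral. Of the other recomputed changes of single probe sets and pairs, 2218 had the same outcome, whether called or not called, 75 lost a call and 15 gained one. Scaling arrays to the same median moved the median change of all 430A probe sets by 0.134 from primordial to primary and by 0.164 from primordial to large antral (0.277 and 0.313 on 430B), and the rising share of 430A calls to 56.5% and 55.6%, against 46.9% and 46.6% as reported. It moved the rising share of 430B calls to 62.2% from primordial to primary, against 37.9% as reported, and to 58.1% from primordial to large antral, against 36%. With quantile and median scaling the 430B probe set of Tyms was called from primordial to large antral, at 1.17 and 1.05. The cause of these shifts was not tested. Signals under 100, as for Psat1 and Shmt1 at the late stages, have no reliable order.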
